A study of Mus musculus with 18 samples.

Results

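The genes described here are 31 mouse genes of homologous recombination and Fanconi repair, taken by symbol from a written list that uses no measured value. The list was chosen with earlier results of these data known. The array annotation paired 29 of them with at least 1 probe, and all 29 had a probe above background on at least 1 array, among 16319 genes with such a probe. Xrcc2 and Fancf were not analysed here. Gene expression was measured on 18 Illumina MouseWG-6 v2.0 arrays of sorted mammary cells from female FVB/N mice, with no further genotype or treatment given. The representative sort was of virgin animals 8 weeks old, and an age for the animals behind each array is not given in the sources used here. Each array holds cells of 1 subset from 1 of 5 pools of mice, so that the biological replicate is the pool and not the animal. There were 3 arrays of stromal cells (pools 1 to 3) and 5 arrays each of MaSC-enriched, luminal progenitor and mature luminal cells (pools 1 to 5).

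Before sorting, cells carrying the blood and endothelial antigens CD31, CD45 and TER119 were gated out. Stromal cells were taken as low for CD29 and without CD24. The MaSC-enriched subset, which holds the mammary stem cells among many other basal cells, was high for CD29 and positive for CD24 and CD61. Both luminal subsets were low for CD29 and positive for CD24, and luminal progenitors carried CD61 while mature luminal cells did not. Levels are the log2 intensities as deposited, and an array's background, estimated from probes of odorant and pheromone receptor genes, lay between 5.10 and 5.44 on this scale.

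Homologous recombination repairs a DNA double-strand break by copying the sister chromatid, and is therefore used mainly in S and G2 phase. The MRE11-RAD50-NBS1 complex senses the break and starts to trim its ends, BRCA1 with BARD1 promotes this step, PALB2 and BRCA2 prepare the single strand for the search, and RAD54 helps it invade the intact copy. The Fanconi proteins repair crosslinks between the DNA strands: a core complex places ubiquitin on FANCD2 and FANCI, and the work is then handed to recombination. In people, inherited loss of BRCA1 or BRCA2 is best known for cancer of the breast and ovary, which is why the level of these genes in the cell types of the mammary gland is of interest. Many genes of this pathway are known to be transcribed mostly in dividing cells, so markers of proliferation are given beside them.

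Of the 29 genes, 12 were lower in stromal cells than in every epithelial subset: Brca2, Bard1, Brip1, Rad51ap1, Rad54l, Mre11a, Blm, Fancd2, Fancm, Chek1, Chek2 and H2afx. That is 41.4% of the list, against 9.69% of all genes. Fancc alone went the other way and was higher in stromal cells than in every epithelial subset, as were 9.93% of all genes. A gene was called different at a Benjamini-Hochberg FDR of 0.05 over the 6 pairwise contrasts and a fold change of 1.5 in limma, and all adjusted p-values below come from that fit. The 3 stromal contrasts share the same 3 stromal arrays and are not independent of each other.

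Counted by contrast, stromal cells were lower than MaSC-enriched cells for 12 of the 29 genes and higher for 1, against 16.1% and 14.3% of all genes (30.4% in either direction). Against luminal progenitors 16 were lower and 1 higher (all genes 19.8% and 16.5%, or 36.3% in either direction), and against mature luminal cells 17 were lower and 1 higher (all genes 21.7% and 16.6%, or 38.3% in either direction). The median log2 difference over the 29 genes was -0.74, -0.83 and -1.15 in these 3 contrasts, where the median over all genes was -0.03, -0.04 and -0.06. Within the epithelium few members differed. No listed gene differed between MaSC-enriched cells and luminal progenitors, where 11.3% of all genes were higher and 10.9% lower (22.2% in either direction). Against mature luminal cells 3 were lower in MaSC-enriched cells, where 13.8% of all genes were lower and 13.7% higher (27.5% in either direction). None differed between luminal progenitors and mature luminal cells, where 6.42% of all genes were higher and 4.67% lower (11.1% in either direction). Over the 6 contrasts 19 of the 29 differed at least once, against 52.6% of all genes, and 13 of the 29 were above background on all 18 arrays, against 52.6% of all genes.

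**Figure D1:**
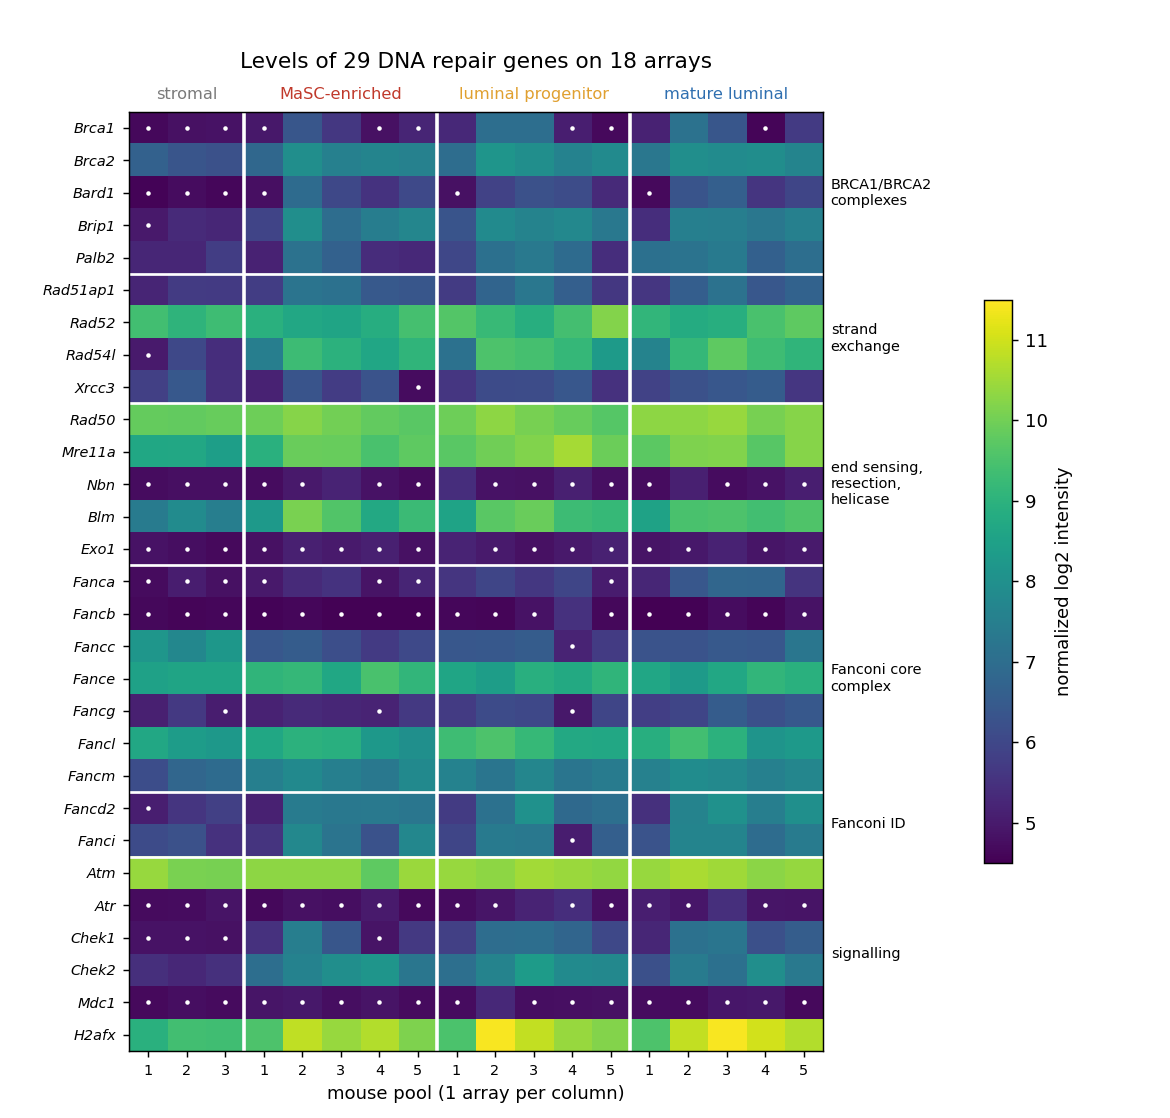
Normalized log2 intensity of the 29 measured genes (rows, grouped by role) on each of 18 arrays (columns, ordered by subset and labelled with the mouse pool); a white dot marks a value at or below that array's background. Along their rows, stromal arrays are darker than most epithelial arrays for the BRCA1 and BRCA2 complex genes, Rad54l, Fancd2, Chek1 and Chek2, and brighter for Fancc.

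The files hold bulk RNA of sorted cells, so a smaller share of cells transcribing a gene and less RNA per cell cannot be told apart. The labelled subsets carried their defining markers: the mean over 5 stromal markers (collagen genes, Pdgfra and Dcn) was 13.67 to 13.94 in stromal arrays, 9.48 to 11.37 in MaSC-enriched, 8.86 to 10.09 in luminal progenitor and 7.25 to 8.77 in mature luminal arrays, and the mean over 5 basal markers was 13.26 to 13.92 in MaSC-enriched arrays and at most 10.94 elsewhere. All 5 stromal markers were called higher in stromal than in MaSC-enriched and luminal progenitor cells, and 4 of 5 than in mature luminal cells. The mean over 5 luminal progenitor markers was 11.54 to 12.59 in luminal progenitor arrays, 10.10 to 11.63 in mature luminal arrays and at most 10.80 elsewhere. Of these markers Aldh1a3 went the other way, called higher in stromal cells than in every epithelial subset. The mean over 4 mature luminal markers was 10.10 to 11.46 in mature luminal arrays and at most 10.07 elsewhere. Of these Esr1 was called higher in stromal than in MaSC-enriched cells. It was not called between mature luminal cells and either stromal cells or luminal progenitors. Of the basal markers Acta2 was not called between stromal and MaSC-enriched cells and was called higher in stromal than in mature luminal cells.

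Some arrays stood apart. MaSC-enriched replicates 3 and 4 had endothelial markers at 10.49 and 9.99, against 7.10 to 8.16 in the other MaSC-enriched arrays, and luminal progenitor replicates 3 and 4 had basal markers at 10.94 and 10.09, against 7.54 to 8.98 in the other luminal progenitor arrays. Luminal progenitor replicate 4 also had the lowest quality weight in the fit (0.171) and the smallest share of probes above background (46.3%, against 51.3% to 55.9% elsewhere). Without these 4 arrays, left out together in a fit added after the data were seen, the number of listed genes called was 11, 12 and 18 in the 3 stromal contrasts. Of all genes, 30.6%, 36.5% and 38.6% were called in that fit. Over all arrays the endothelial markers ranged over 8.45 to 9.13 in stromal, 7.10 to 10.49 in MaSC-enriched, 6.40 to 9.29 in luminal progenitor and 6.94 to 7.60 in mature luminal arrays. The blood markers ranged over 8.13 to 8.31, 6.70 to 8.51, 6.77 to 8.45 and 7.16 to 8.23, and the pericyte markers over 7.82 to 8.31, 7.04 to 8.76, 5.52 to 7.34 and 6.14 to 6.55, in the same order of subsets. Ptprc, the CD45 gene, was above background on 0 stromal, 0 MaSC-enriched, 1 luminal progenitor and 1 mature luminal array. The blood marker Cd3e, the endothelial marker Tek and the pericyte markers Abcc9 and Kcnj8 were called higher in stromal cells than in every epithelial subset. Against mature luminal cells only, the pericyte marker Cspg4 was called higher and the blood marker Hba-a1 lower. The part of other cell types in the differences below was not tested.

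Most of the 27 measured proliferation markers were also lower in stromal cells: 22 than in MaSC-enriched cells and 23 than in either luminal subset. Of all genes, 16.1%, 19.8% and 21.7% were lower in these 3 contrasts. The median log2 differences of the markers were -1.94, -2.13 and -2.38. Their mean level was 6.80 to 7.66 in stromal arrays, against 7.96 to 9.82 in MaSC-enriched, 8.23 to 9.74 in luminal progenitor and 8.14 to 9.81 in mature luminal arrays. The largest differences were those of the mitotic kinase genes Cdk1 (-3.31 ± 0.45, SE, stromal minus mature luminal, adjusted p = 1.05e-05) and Aurka (-3.27 ± 0.37, adjusted p = 1.01e-06) and of the replication helicase gene Mcm6 (-3.12 ± 0.37 against luminal progenitors, adjusted p = 1.89e-06). No marker differed between epithelial subsets, with 0 of 27 called in each of the 3 contrasts, where 22.2%, 27.5% and 11.1% of all genes were called. The part of proliferation in the repair gene differences was not tested.

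Promoters are shown because 12 members moved together: those of Brca2 and of the 6 genes with the largest log2 differences among the genes called in all 3 stromal contrasts that have a window, which are Rad54l, Chek2, Brip1, Chek1, Fancc and Blm. Fancc was higher in stromal cells and the others were lower. Each sequence is the RefSeq window of the mouse build GRCm38.p6 that begins 250 bases before the annotated start and ends 50 bases after it, written 5′ to 3′ on the gene's strand. Capitals mark a match to TTCCCGC or its reverse complement GCGGGAA, a core sequence bound by E2F factors.
Brca2: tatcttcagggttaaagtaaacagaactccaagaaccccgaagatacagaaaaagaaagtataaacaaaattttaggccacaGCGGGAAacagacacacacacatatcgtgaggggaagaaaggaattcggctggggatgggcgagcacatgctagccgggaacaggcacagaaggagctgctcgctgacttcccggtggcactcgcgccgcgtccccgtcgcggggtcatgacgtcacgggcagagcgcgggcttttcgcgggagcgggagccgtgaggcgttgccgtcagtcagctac
Rad54l: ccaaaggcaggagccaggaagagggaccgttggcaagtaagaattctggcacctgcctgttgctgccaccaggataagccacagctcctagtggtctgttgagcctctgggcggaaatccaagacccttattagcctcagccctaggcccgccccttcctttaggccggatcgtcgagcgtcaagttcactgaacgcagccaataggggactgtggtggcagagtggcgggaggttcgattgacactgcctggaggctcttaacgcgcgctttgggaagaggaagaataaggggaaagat
Chek2: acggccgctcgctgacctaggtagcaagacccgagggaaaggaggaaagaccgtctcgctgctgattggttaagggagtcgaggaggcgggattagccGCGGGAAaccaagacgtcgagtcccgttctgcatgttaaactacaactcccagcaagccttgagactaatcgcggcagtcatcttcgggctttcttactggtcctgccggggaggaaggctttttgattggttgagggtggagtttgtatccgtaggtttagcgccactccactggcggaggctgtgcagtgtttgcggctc
Brip1: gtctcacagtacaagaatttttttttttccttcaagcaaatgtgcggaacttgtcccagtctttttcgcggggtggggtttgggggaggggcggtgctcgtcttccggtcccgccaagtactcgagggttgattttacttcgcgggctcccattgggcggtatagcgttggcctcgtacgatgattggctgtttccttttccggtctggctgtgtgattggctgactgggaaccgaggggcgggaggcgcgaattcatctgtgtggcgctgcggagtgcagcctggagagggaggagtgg
Chek1: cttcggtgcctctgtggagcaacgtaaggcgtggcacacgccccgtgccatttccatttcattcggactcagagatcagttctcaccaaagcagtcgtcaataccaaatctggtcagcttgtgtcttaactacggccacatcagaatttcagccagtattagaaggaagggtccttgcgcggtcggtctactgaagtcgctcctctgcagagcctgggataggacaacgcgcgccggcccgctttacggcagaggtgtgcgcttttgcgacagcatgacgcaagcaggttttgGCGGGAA
Fancc: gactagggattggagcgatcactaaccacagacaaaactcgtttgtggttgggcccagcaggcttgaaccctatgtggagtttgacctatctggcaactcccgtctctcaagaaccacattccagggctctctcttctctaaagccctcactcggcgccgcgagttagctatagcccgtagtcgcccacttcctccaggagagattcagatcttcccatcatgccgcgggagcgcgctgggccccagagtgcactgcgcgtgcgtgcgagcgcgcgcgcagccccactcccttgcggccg
Blm: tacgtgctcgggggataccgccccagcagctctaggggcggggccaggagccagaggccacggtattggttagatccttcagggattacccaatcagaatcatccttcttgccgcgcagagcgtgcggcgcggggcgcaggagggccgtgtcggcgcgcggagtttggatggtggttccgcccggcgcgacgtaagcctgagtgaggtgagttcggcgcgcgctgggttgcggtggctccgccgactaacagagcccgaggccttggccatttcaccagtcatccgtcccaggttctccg
The windows lie at chr5:150522371-150522670 and chr5:110839733-110840032 on the plus strand, and at chr4:116123640-116123939, chr11:86201144-86201443, chr9:36726609-36726908, chr13:63431696-63431995 and chr7:80534949-80535248 on the minus strand.

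The match begins at position -168 from the start in Brca2 and -152 in Chek2, and 44 bases into the transcribed part in Chek1. The windows of Rad54l, Brip1, Fancc and Blm hold none. Over the 26 windows found for 25 of the listed genes, TTCCCGC occurred on either strand in 12 (46.2%), against 6.86% of 16294 windows of genes with a kept probe and 4.6% of 32851 windows in all. It was in 6 of 11 windows of the genes lower in stromal cells than in every epithelial subset and in 6 of 15 windows of the others, among them Rad52, Atm and Mdc1. The 11 count Rad54l with overlapping, nearly identical windows and hold none of Fancd2 or H2afx. The 15 include Fancf, whose level was not analysed here. Searched the same way, CCAAT was in 69.2% of the listed windows (37.4% of all), TTTGAA in 3.85% (17.9% of all) and TTTGGCGC, another form of the E2F site that can overlap TTCCCGC, in none (0.514% of all). A match shows only that the letters are in the window.

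BRCA1 and BRCA2 complexes came first among the role groups, with all 5 genes lower in stromal cells than in at least the luminal subsets. Brca1, the ubiquitin ligase subunit and tumor suppressor, was close to background, above it on 9 of the 18 arrays. Its level was 4.65, 4.83 and 4.84 in stromal cells of pools 1 to 3, 4.95, 6.36, 5.64, 4.82 and 5.23 in MaSC-enriched cells of pools 1 to 5, 5.30, 7.03, 7.02, 5.09 and 4.68 in luminal progenitors and 5.17, 7.14, 6.38, 4.58 and 5.68 in mature luminal cells. All stromal values were below background, several epithelial arrays were as low, and the epithelial arrays of pools 2 and 3 were the high ones in every subset. The fitted log2 difference, which weights arrays by quality and so is not the plain difference of means, was -0.84 ± 0.38 against MaSC-enriched cells (SE, adjusted p = 0.117, not called, but called at -1.15 with the pool as a fixed block, adjusted p = 0.0108, and at -1.08 with the hybridization batch as one, adjusted p = 0.0405), -1.38 ± 0.37 against luminal progenitors (adjusted p = 0.00661) and -1.35 ± 0.34 against mature luminal cells (adjusted p = 0.00461). Taken against the background level, Brca1 was at least 1.61-fold and 1.57-fold lower in stromal cells than in luminal progenitors and mature luminal cells. The call against luminal progenitors was lost without luminal progenitor replicate 3 (adjusted p = 0.0553) and without the 4 arrays that stood apart (0.0826), and a second Brca1 probe was not called in any stromal contrast.

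Between epithelial subsets Brca1 did not pass the test: the 95% confidence interval of the log2 difference was -1.39 to 0.30 for MaSC-enriched minus luminal progenitor, -1.32 to 0.29 for MaSC-enriched minus mature luminal and -0.74 to 0.80 for luminal progenitor minus mature luminal. These intervals leave room for a change of more than 1.5-fold, so the 18 arrays do not show that the epithelial subsets have equal Brca1 levels.

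Brca2, the tumor suppressor that acts with PALB2 on the single strand, was above background on all 18 arrays. It lay at 6.67, 6.35 and 6.23 in stromal cells, 6.85, 7.97, 7.54, 7.67 and 7.59 in MaSC-enriched cells, 7.01, 8.15, 7.96, 7.59 and 7.84 in luminal progenitors and 7.28, 7.95, 7.88, 7.93 and 7.67 in mature luminal cells. No stromal array reached any epithelial one, and within each epithelial subset the pool 1 array was the lowest. Stromal cells were 2.07-fold lower than MaSC-enriched cells (-1.05 ± 0.22, adjusted p = 0.000886), 2.31-fold lower than luminal progenitors (-1.21 ± 0.21, adjusted p = 0.000138) and 2.42-fold lower than mature luminal cells (-1.27 ± 0.19, adjusted p = 3.59e-05). A second probe above background on all arrays (ILMN_3109564) was also called lower against both luminal subsets, and another was near background. With the mean of the kept probes in place of the brightest, the difference from MaSC-enriched cells shrank to -0.54 and was no longer past the fold threshold.

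Bard1, the partner that BRCA1 needs for its ligase activity, was below background in every stromal array, at 4.56, 4.74 and 4.62. Its level was 4.79, 6.94, 6.02, 5.53 and 6.04 in MaSC-enriched cells, 4.81, 5.89, 6.22, 6.12 and 5.34 in luminal progenitors and 4.69, 6.31, 6.61, 5.58 and 5.96 in mature luminal cells, so that only the pool 1 epithelial arrays were as low as stromal cells. The log2 difference was -1.25 ± 0.33 against MaSC-enriched cells (adjusted p = 0.00685), -0.91 ± 0.32 against luminal progenitors (adjusted p = 0.0365) and -1.21 ± 0.29 against mature luminal cells (adjusted p = 0.00366), or at least 1.66-, 1.45- and 1.62-fold against background. The call against luminal progenitors was lost without any 1 of 6 arrays (stromal replicate 2 or 3, MaSC-enriched replicate 4, luminal progenitor replicate 2, 3 or 4; adjusted p up to 0.173), with hybridization batch 1 alone (0.147) and without the 4 arrays that stood apart (0.285), and that against MaSC-enriched cells without MaSC-enriched replicate 2 (0.051). With the BeadChip as a fixed block both were lost, at -0.46 (adjusted p = 0.317) and -0.82 (0.0894).

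Brip1 encodes a helicase that binds BRCA1. Stromal arrays had 4.99, 5.35 and 5.25, against 5.93, 7.97, 7.01, 7.46 and 7.72 in MaSC-enriched cells, 6.33, 7.84, 7.62, 7.76 and 7.30 in luminal progenitors and 5.41, 7.53, 7.50, 7.28 and 7.55 in mature luminal cells. Every epithelial array lay above every stromal one, although mature luminal replicate 1 did so only narrowly. The fitted differences were -1.91 ± 0.35, -1.98 ± 0.34 and -1.72 ± 0.31 against MaSC-enriched, luminal progenitor and mature luminal cells (adjusted p = 0.000304, 0.000128 and 0.000272).

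Palb2, the bridge between BRCA1 and BRCA2, differed from the others in where it was low. It lay at 5.26, 5.27 and 5.77 in stromal cells, 5.18, 7.14, 6.68, 5.39 and 5.31 in MaSC-enriched cells, 6.002, 7.08, 7.34, 6.94 and 5.43 in luminal progenitors and 7.09, 7.16, 7.39, 6.65 and 7.03 in mature luminal cells. Mature luminal arrays were all high, while 3 of the 5 MaSC-enriched arrays were at the stromal level. Palb2 was lower in stromal than in mature luminal cells (-1.82 ± 0.27, adjusted p = 3.04e-05) and luminal progenitors (-1.25 ± 0.29, adjusted p = 0.00258), and lower in MaSC-enriched than in mature luminal cells (-1.08 ± 0.30, adjusted p = 0.0106). Against MaSC-enriched cells the stromal difference was -0.74 ± 0.31 and was not called (adjusted p = 0.0785). With the mean of the kept Palb2 probes, the MaSC-enriched minus mature luminal difference shrank to -0.587 (adjusted p = 0.018), only just past the fold threshold.

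**Figure D2:**
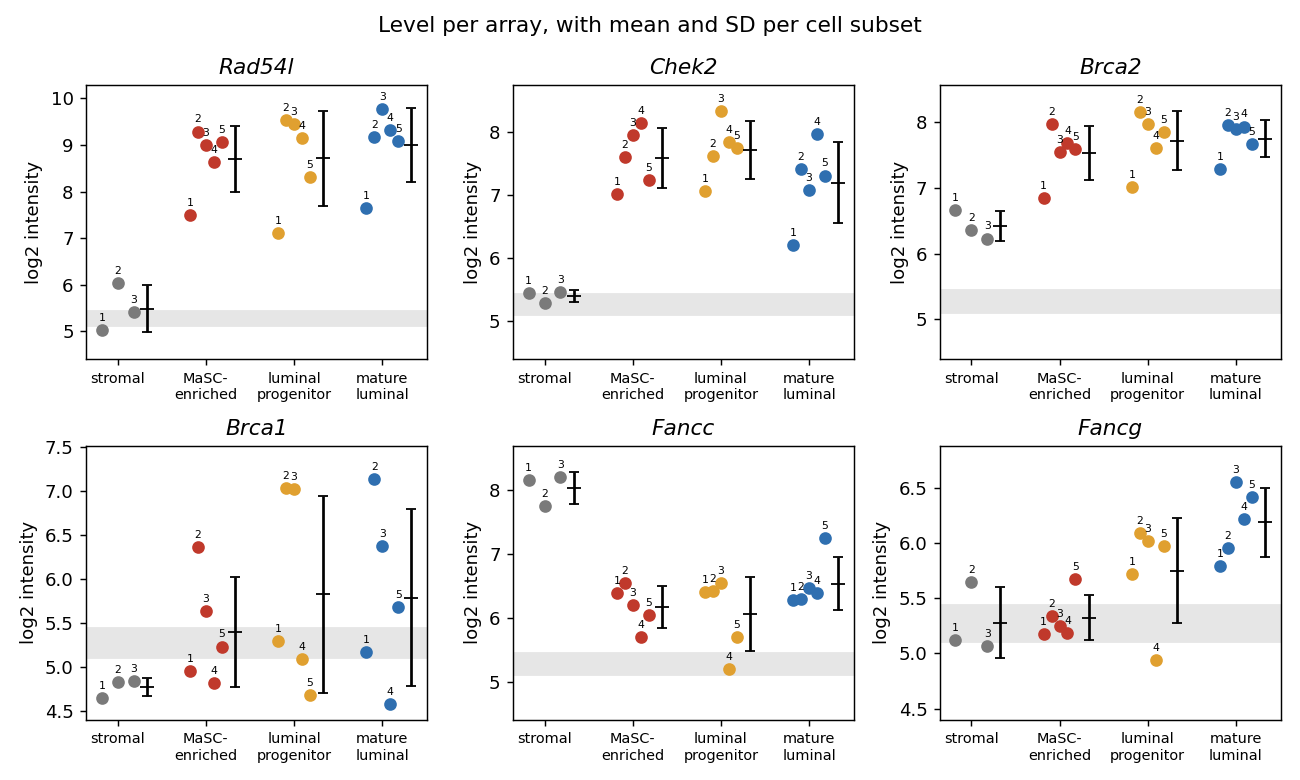
Log2 intensity per array (points, labelled with the mouse pool) by cell subset for 6 genes, with the mean and SD per subset in black (n = 3 stromal, n = 5 for each epithelial subset) and the range of the arrays' background in grey. Stromal arrays lie below all epithelial arrays for Rad54l, Chek2 and Brca2 and above them for Fancc, Brca1 is near background in many arrays, and Fancg has its highest mean in mature luminal cells.

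Among the strand exchange genes, Rad54l had the largest difference of the whole list. RAD54 is a motor protein that helps to open the intact duplex. Rad54l was at 5.02, 6.02 and 5.40 in stromal cells, 7.50, 9.29, 9.01, 8.63 and 9.07 in MaSC-enriched cells, 7.11, 9.54, 9.45, 9.15 and 8.32 in luminal progenitors and 7.64, 9.18, 9.77, 9.32 and 9.09 in mature luminal cells. Epithelial arrays were all far above the stromal ones, and the pool 1 array was the lowest of each epithelial subset. Stromal cells were 8.51-fold lower than MaSC-enriched cells (-3.09 ± 0.39, adjusted p = 4.52e-06), 7.84-fold lower than luminal progenitors (-2.97 ± 0.37, adjusted p = 4.09e-06) and 10.3-fold lower than mature luminal cells (-3.36 ± 0.35, adjusted p = 3.44e-07).

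Rad51ap1, which stimulates strand pairing, had 5.21, 5.72 and 5.69 in stromal cells, 5.76, 7.20, 7.10, 6.46 and 6.36 in MaSC-enriched cells, 5.71, 6.76, 7.27, 6.61 and 5.63 in luminal progenitors and 5.61, 6.59, 7.15, 6.40 and 6.71 in mature luminal cells. Stromal arrays lay below all MaSC-enriched arrays, but 2 luminal progenitor arrays (pools 1 and 5) and the pool 1 mature luminal array were as low. The differences were -1.07 ± 0.28, -0.87 ± 0.26 and -0.95 ± 0.24 (adjusted p = 0.00529, 0.0164 and 0.00559), and the second Rad51ap1 probe was called lower in all 3 contrasts as well. The call against luminal progenitors was lost without luminal progenitor replicate 2 or 3 (adjusted p up to 0.125) and without the 4 arrays that stood apart (0.211), the difference was -0.49 with the BeadChip as a fixed block (0.129), and within hybridization batch 1 alone both luminal calls just missed the threshold (adjusted p = 0.0548 and 0.054).

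Rad52 and Xrcc3 did not share this pattern. Rad52, a mediator of strand annealing, averaged 9.25 ± 0.18 in stromal, 8.90 ± 0.33 in MaSC-enriched, 9.47 ± 0.49 in luminal progenitor cells and 9.21 ± 0.41 in mature luminal cells (SD, n = 3 and 5 each), and Xrcc3, which also acts in strand exchange, 5.90 ± 0.49, 5.65 ± 0.70, 5.94 ± 0.38 and 6.13 ± 0.38 in the same order. Neither was called in any contrast. The 95% interval of the stromal minus mature luminal difference was -0.15 to 0.50 for Rad52 and -0.57 to 0.29 for Xrcc3. For Rad52 the difference between MaSC-enriched cells and luminal progenitors was -0.54 ± 0.18 (adjusted p = 0.0311), under the fold threshold.

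Of the end sensing, resection and helicase genes, Mre11a and Blm were lower in stromal cells and the others were not called. Mre11a, the nuclease of the break sensor, was at 8.67, 8.70 and 8.41 in stromal cells, against 8.95, 9.91, 9.86, 9.49 and 9.75 in MaSC-enriched cells, 9.70, 9.97, 10.18, 10.55 and 9.92 in luminal progenitors and 9.75, 10.15, 10.16, 9.68 and 10.23 in mature luminal cells. Stromal and epithelial arrays did not overlap. The log2 differences were -0.93 ± 0.16, -1.31 ± 0.15 and -1.37 ± 0.14 (adjusted p = 0.000145, 1.54e-06 and 3.38e-07).

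Rad50, its structural partner, averaged 9.84 ± 0.03 in stromal, 9.94 ± 0.20 in MaSC-enriched, 9.97 ± 0.24 in luminal progenitor cells and 10.27 ± 0.13 in mature luminal cells. Its difference between stromal and mature luminal cells was -0.49 ± 0.09 (adjusted p = 0.000378), which passed the FDR but not the fold threshold. Nbn, the NBS1 gene, was above background on no more than 3 arrays, as was the resection nuclease gene Exo1.

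Blm, the RecQ helicase gene mutated in Bloom syndrome, had 7.42, 7.88 and 7.49 in stromal cells, 8.30, 10.08, 9.60, 8.73 and 9.27 in MaSC-enriched cells, 8.57, 9.71, 9.90, 9.29 and 9.18 in luminal progenitors and 8.53, 9.50, 9.56, 9.38 and 9.57 in mature luminal cells. No stromal array reached an epithelial one. Stromal cells were 3.03-fold lower than MaSC-enriched cells, 3.16-fold lower than luminal progenitors and 3.08-fold lower than mature luminal cells (adjusted p = 7.08e-05, 2.78e-05 and 1.61e-05). A second Blm probe was called in the same direction in all 3 contrasts, and the other 2 were not called.

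The Fanconi core complex did not move as a block. Of its 7 measured genes, Fancm was lower and Fancc higher in stromal cells than in every epithelial subset, Fanca, Fancg and Fancl were lower than in only some, and Fancb and Fance were not called. The mean over the 7 genes was 6.57 to 6.69 in stromal, 6.47 to 6.83 in MaSC-enriched, 6.62 to 6.98 in luminal progenitor and 6.70 to 7.15 in mature luminal arrays.

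Fancc, an adaptor subunit of the core complex, was the exception of the whole list. It lay at 8.17, 7.75 and 8.20 in stromal cells, 6.39, 6.55, 6.19, 5.70 and 6.04 in MaSC-enriched cells, 6.40, 6.43, 6.54, 5.20 and 5.70 in luminal progenitors and 6.28, 6.29, 6.46, 6.39 and 7.26 in mature luminal cells. All stromal arrays were above all epithelial ones. Stromal cells were 3.27-fold higher than MaSC-enriched cells (1.71 ± 0.20, adjusted p = 1.79e-06), 3.19-fold higher than luminal progenitors (1.67 ± 0.19, adjusted p = 1.26e-06) and 2.85-fold higher than mature luminal cells (1.51 ± 0.18, adjusted p = 1.94e-06). The other 2 Fancc probes gave 1.20 ± 0.21, 1.54 ± 0.20 and 1.35 ± 0.18, and 1.48 ± 0.21, 1.34 ± 0.20 and 1.17 ± 0.18, all called.

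Fancm, the DNA translocase that brings the core complex to a stalled fork, was at 6.15, 6.80 and 6.96 in stromal cells, 7.51, 7.82, 7.51, 7.30 and 7.82 in MaSC-enriched cells, 7.60, 7.21, 7.71, 7.23 and 7.41 in luminal progenitors and 7.56, 7.91, 7.79, 7.55 and 7.71 in mature luminal cells. Each epithelial array was above each stromal one. The differences were -1.04 ± 0.17, -0.92 ± 0.16 and -1.15 ± 0.15 (adjusted p = 6.51e-05, 0.000146 and 5.14e-06). They rest on 1 probe, since the other kept Fancm probes were above background on 2 or 3 arrays, and with the mean over the probes all 3 calls were lost (-0.36, -0.31 and -0.35).

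Fanca and Fancg, subunits that bind each other, had their highest means in mature luminal cells. Fanca was at 4.71, 5.06 and 4.81 in stromal cells, all below background, 4.99, 5.32, 5.52, 4.87 and 5.23 in MaSC-enriched cells, 5.58, 5.96, 5.63, 5.96 and 5.03 in luminal progenitors and 5.24, 6.40, 6.82, 6.79 and 5.54 in mature luminal cells. Mature luminal values spread widely and only their lower end touched the MaSC-enriched range. Fanca was lower in stromal cells than in mature luminal cells (at least 2.04-fold, -1.27 ± 0.22, adjusted p = 0.00014) and luminal progenitors (at least 1.41-fold, -0.76 ± 0.23, adjusted p = 0.0179), and lower in MaSC-enriched than in mature luminal cells (-0.93 ± 0.24, adjusted p = 0.0061). The call against luminal progenitors was lost without luminal progenitor replicate 1 or 2 (adjusted p up to 0.0734) and with the BeadChip as a fixed block (-0.68, adjusted p = 0.0589).

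Fancg had 5.12, 5.65 and 5.07 in stromal cells, 5.18, 5.34, 5.25, 5.19 and 5.67 in MaSC-enriched cells, 5.72, 6.09, 6.02, 4.94 and 5.97 in luminal progenitors and 5.79, 5.95, 6.55, 6.21 and 6.42 in mature luminal cells. Mature luminal arrays lay above every MaSC-enriched and stromal array. The difference was -0.79 ± 0.16 for stromal minus mature luminal cells (adjusted p = 0.00056) and -0.83 ± 0.17 for MaSC-enriched minus mature luminal cells (adjusted p = 0.00106). Against luminal progenitors, stromal (-0.54 ± 0.17, adjusted p = 0.019) and MaSC-enriched cells (-0.57 ± 0.18, adjusted p = 0.023) passed the FDR but not the fold threshold.

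Fancl, the ubiquitin ligase subunit, gave no single answer. Its brightest probe averaged 8.44 ± 0.24 in stromal, 8.56 ± 0.44 in MaSC-enriched, 9.09 ± 0.37 in luminal progenitor cells and 8.74 ± 0.53 in mature luminal cells, and was called lower in stromal cells than in luminal progenitors only (-0.83 ± 0.18, adjusted p = 0.0014). A second probe (ILMN_1247125) was lower in stromal cells in the same contrast (-1.08 ± 0.25, adjusted p = 0.00226), whereas ILMN_1255562 and ILMN_2459979 were higher (0.91 ± 0.27 and 0.98 ± 0.17, adjusted p = 0.0148 and 0.000134). With the probes averaged, the difference was -0.003 (adjusted p = 0.994), so no direction is given for Fancl.

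**Figure D3:**
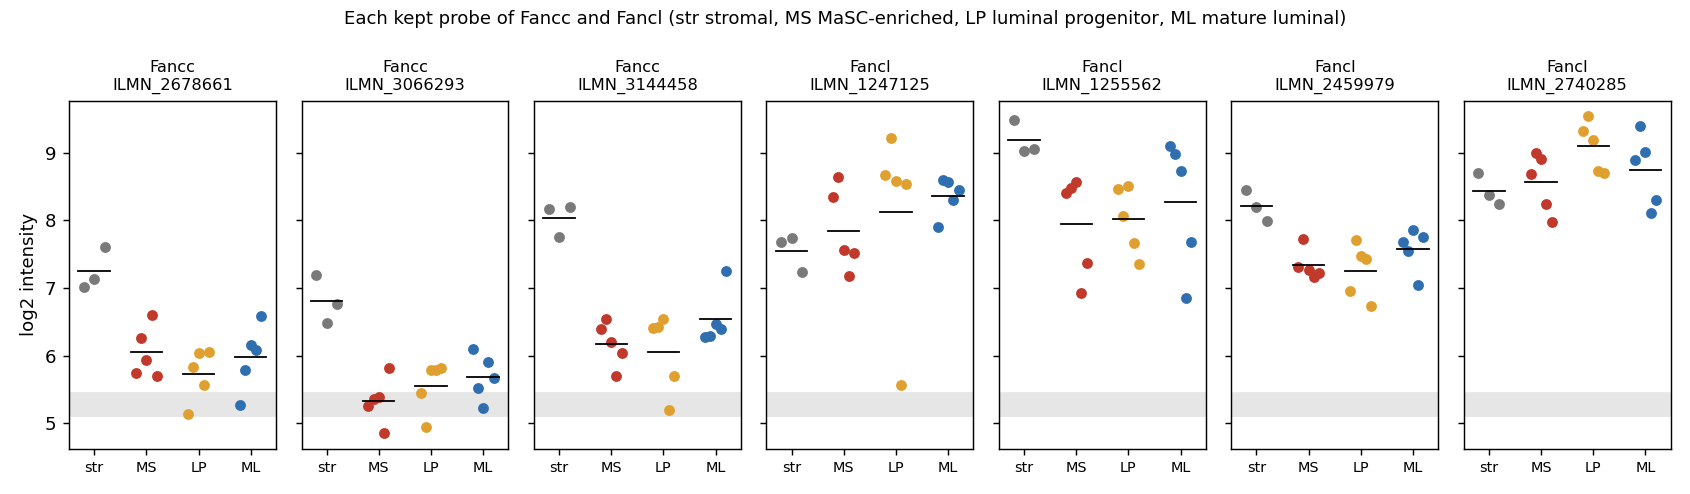
Log2 intensity per array for each kept probe of Fancc (3 probes) and Fancl (4 probes) by subset, with the mean as a line and the background range in grey. All 3 Fancc probes have their highest mean in stromal cells, while 2 Fancl probes have their highest and 2 their lowest mean there.

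Fance, which links the core complex to FANCD2, averaged 8.56 ± 0.05 in stromal, 9.10 ± 0.29 in MaSC-enriched, 8.75 ± 0.27 in luminal progenitor cells and 8.74 ± 0.31 in mature luminal cells. It was the only listed gene with an adjusted p under the FDR that was higher in MaSC-enriched than in mature luminal cells (0.44 ± 0.15, adjusted p = 0.0293), a difference under the fold threshold. Fancb was near or below background almost throughout.

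The Fanconi ID complex genes carry the ubiquitin mark that the core complex places. Fancd2 was at 5.09, 5.58 and 5.83 in stromal cells, 5.15, 7.41, 7.31, 7.33 and 7.24 in MaSC-enriched cells, 5.71, 7.11, 8.05, 6.88 and 7.05 in luminal progenitors and 5.48, 7.64, 8.03, 7.51 and 7.99 in mature luminal cells. The epithelial arrays of pool 1 were at the stromal level and those of the other pools clearly above it, so the groups overlapped through pool 1 alone. The differences were -1.26 ± 0.42, -1.38 ± 0.40 and -1.70 ± 0.37 (adjusted p = 0.0288, 0.0127 and 0.0015). The call against MaSC-enriched cells was lost without any 1 of 6 arrays (each stromal replicate, MaSC-enriched replicates 2, 3 and 4; adjusted p up to 0.124) and the one against luminal progenitors without stromal replicate 2 or luminal progenitor replicate 3 (up to 0.0915), and both were lost with hybridization batch 1 alone (0.142 and 0.0794) and without the 4 arrays that stood apart (0.191 and 0.175). With the BeadChip as a fixed block these 2 differences were -0.51 (adjusted p = 0.399) and -0.71 (0.164).

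Fanci, its partner, lay at 6.11, 6.24 and 5.50 in stromal cells, 5.54, 7.76, 7.19, 6.27 and 7.74 in MaSC-enriched cells, 5.95, 7.39, 7.30, 5.07 and 6.63 in luminal progenitors and 6.28, 7.65, 7.66, 6.98 and 7.43 in mature luminal cells. Stromal arrays were below all mature luminal arrays, but some MaSC-enriched and luminal progenitor arrays were as low. Fanci was called in the mature luminal contrast only (-1.17 ± 0.31, adjusted p = 0.00749), a call that was lost with the BeadChip as a fixed block (-0.92, adjusted p = 0.0827), with -0.85 ± 0.35 against MaSC-enriched cells (adjusted p = 0.0814) and -0.65 ± 0.34 against luminal progenitors (adjusted p = 0.172).

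Among the signalling genes, both checkpoint kinase genes and the histone variant H2afx were lower in stromal cells, while the sensor kinase genes Atm and Atr were not called. Chek2 was at 5.45, 5.28 and 5.46 in stromal cells, 7.02, 7.61, 7.96, 8.15 and 7.24 in MaSC-enriched cells, 7.06, 7.62, 8.34, 7.85 and 7.76 in luminal progenitors and 6.21, 7.42, 7.08, 7.97 and 7.32 in mature luminal cells. Stromal arrays lay together just above background and every epithelial array was well above them. Stromal cells were 4.34-fold lower than MaSC-enriched cells (-2.12 ± 0.25, adjusted p = 1.95e-06), 4.76-fold lower than luminal progenitors (-2.25 ± 0.24, adjusted p = 4.84e-07) and 3.14-fold lower than mature luminal cells (-1.65 ± 0.22, adjusted p = 9.9e-06).

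Chek1, the kinase that acts below ATR, was below background on all stromal arrays, at 4.84, 4.85 and 4.81. It had 5.50, 7.50, 6.38, 4.86 and 5.67 in MaSC-enriched cells, 5.84, 6.996, 7.02, 6.79 and 6.02 in luminal progenitors and 5.26, 7.11, 7.23, 6.20 and 6.56 in mature luminal cells. MaSC-enriched replicate 4 was as low as stromal cells and all other epithelial arrays were higher. Stromal cells were at least 1.8-fold lower than MaSC-enriched cells (-1.38 ± 0.37, adjusted p = 0.00741), 2.64-fold lower than luminal progenitors (-1.68 ± 0.35, adjusted p = 0.000989) and 2.53-fold lower than mature luminal cells (-1.72 ± 0.33, adjusted p = 0.000415). The first of these calls was lost without stromal replicate 2 or MaSC-enriched replicate 2 (adjusted p up to 0.0937).

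H2afx, the gene of the histone that is phosphorylated around a break, lay at 8.95, 9.37 and 9.36 in stromal cells, 9.54, 10.83, 10.42, 10.68 and 10.16 in MaSC-enriched cells, 9.51, 11.44, 10.87, 10.41 and 10.20 in luminal progenitors and 9.55, 10.86, 11.44, 11.03 and 10.71 in mature luminal cells. The pool 1 epithelial arrays were only slightly above the stromal ones. The differences were -1.08 ± 0.30, -1.23 ± 0.29 and -1.44 ± 0.27 (adjusted p = 0.0102, 0.00277 and 0.000344), of which the first was lost without stromal replicate 2 (adjusted p = 0.0539), with hybridization batch 1 alone (0.0681) and with the BeadChip as a fixed block (-0.65, adjusted p = 0.112). Without the 4 arrays that stood apart the differences from MaSC-enriched cells and luminal progenitors both missed the threshold (0.0676 and 0.0565).

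Atm averaged 10.19 ± 0.20 in stromal, 10.23 ± 0.26 in MaSC-enriched, 10.41 ± 0.09 in luminal progenitor cells and 10.44 ± 0.13 in mature luminal cells. Its 95% intervals were narrow, -0.51 to -0.07 for stromal minus mature luminal cells, so a change of 1.5-fold lies outside this interval. Atr and the adaptor gene Mdc1 were above background on 3 arrays or fewer. With Nbn, Exo1 and Fancb they make 5 genes whose subset means all lay between 4.56 and 5.04, at or below background, so that a difference was not detectable at this signal.

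**Figure D4:**
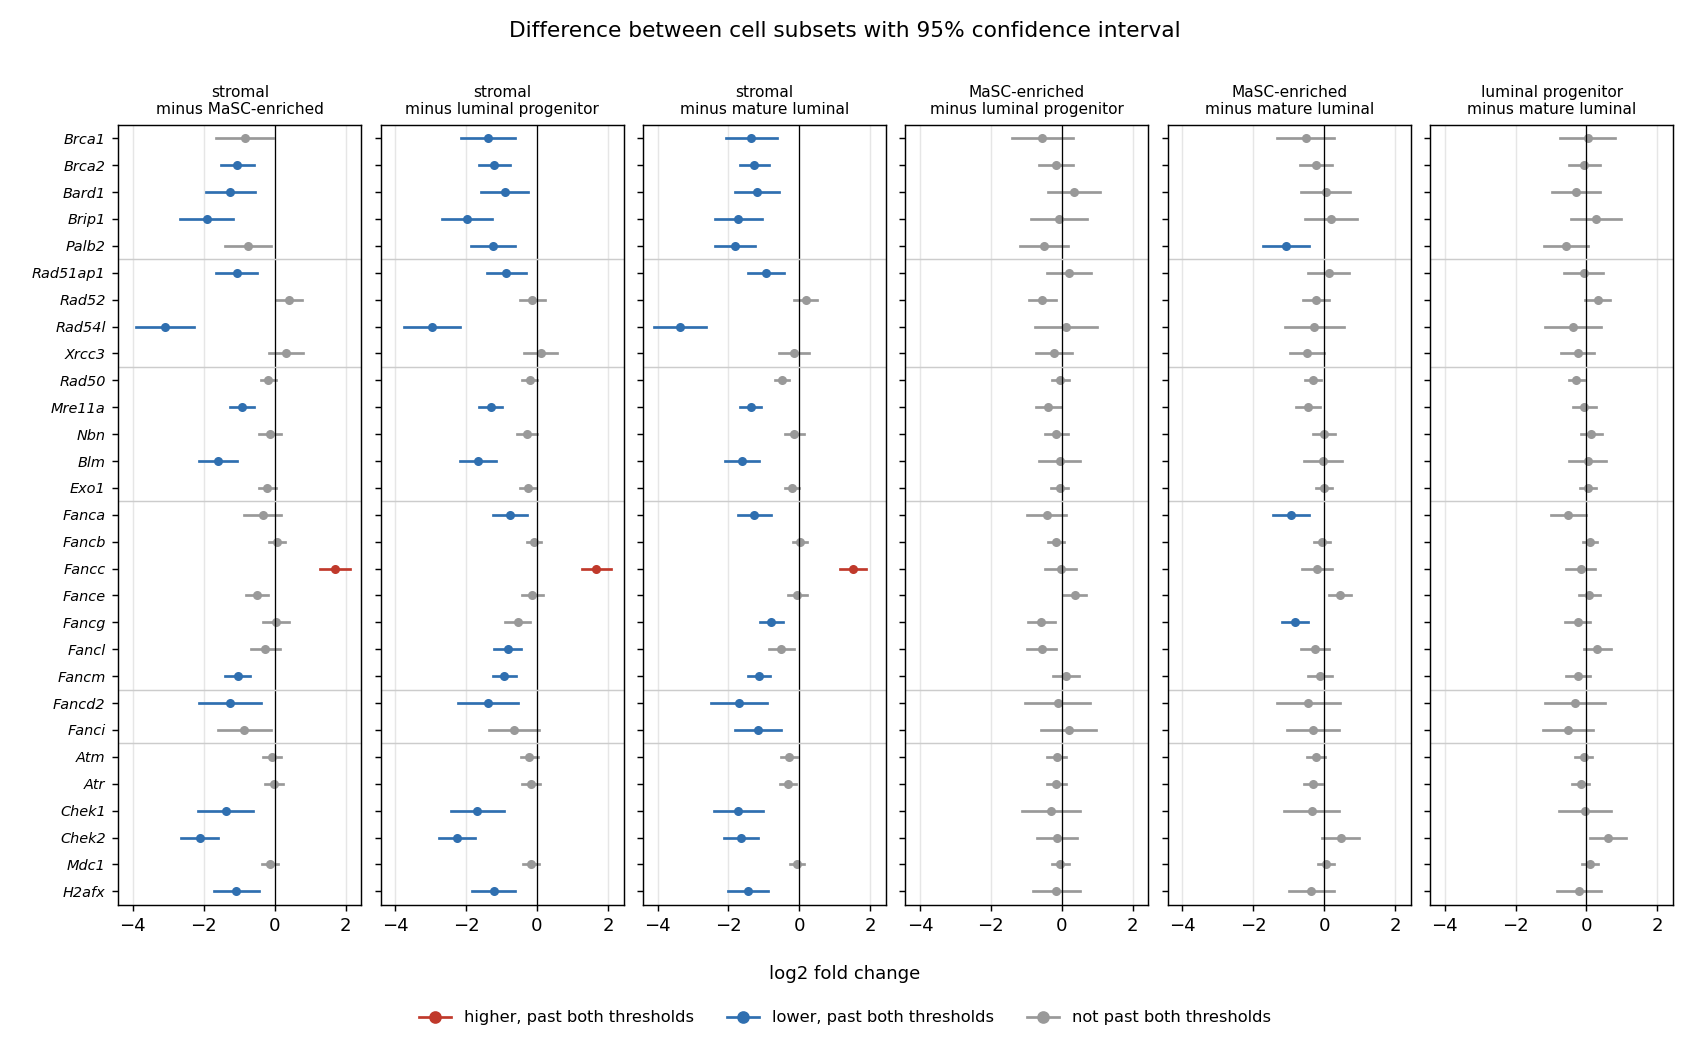
Log2 fold change (x axis) with its 95% confidence interval for the 29 genes (rows, grouped by role) in the 6 contrasts between cell subsets; red is higher and blue lower in the first-named subset, past both the FDR of 0.05 and the fold change of 1.5. Most called genes lie in the 3 stromal contrasts, and the epithelial contrasts hold 3 calls, all for MaSC-enriched minus mature luminal cells.

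The 3 genes called within the epithelium, Palb2, Fanca and Fancg, were lower in the MaSC-enriched than in the mature luminal array in 5 of 5 pools. The smallest differences within a pool were -0.02 for Palb2, -0.26 for Fanca and -0.61 for Fancg, and the greatest -1.91, -1.92 and -1.30. Fancg and Fanca were also called with hybridization batch 1 alone (adjusted p = 0.0171 and 0.0364), where Palb2 was not (0.208) and 25.4% of all genes were. With batch 2 alone none of the 3 was called (adjusted p = 0.426 for Fanca, 0.289 for Fancg and 0.169 for Palb2). That fit held 6 arrays and called 3.45% of all genes, and the differences in it were -1.12, -0.89 and -1.49 in the same order. Of the 27 proliferation markers, 21 had a negative difference between these subsets and 0 were called. Their median was -0.21 and that of the 29 repair genes -0.23, and their part in the 3 calls was not tested.

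At an unadjusted p under 0.05, 5 of the 29 genes differed between MaSC-enriched and luminal progenitor cells, 7 between MaSC-enriched and mature luminal cells and 3 between luminal progenitor and mature luminal cells, against 35.2%, 42.2% and 25.1% of all genes. The 95% confidence interval of the log2 difference lay within 1 unit of 0 for 24, 21 and 24 of the 29 genes in these contrasts. The intervals of the other genes reached beyond a 2-fold change, as did those of Brca1 in both contrasts of MaSC-enriched cells.

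The repair genes also varied between pools within the epithelium. Averaged over the 3 epithelial arrays of a pool, the mean level of the 12 genes lower in stromal cells was 6.96 in pool 1, 8.25 in pool 2, 8.24 in pool 3, 7.90 in pool 4 and 7.86 in pool 5. The 17 other listed genes had 6.55, 6.93, 6.88, 6.61 and 6.63 in pools 1 to 5, and all 29 had 6.72, 7.48, 7.44, 7.14 and 7.14. The 12 were chosen by their calls in these data, and the 17 hold the 5 genes at background, so the sets are not contrasted. Among the 17, the pool means of Brca1 spanned 2.01 log2 units and those of Fanci 1.68. Those of Fancm, a gene of the 12, spanned 0.31. Pool 1 shares its hybridization batch with pools 2 and 3. All arrays of pool 1 were on BeadChip 1, all of pool 3 on BeadChip 2, and those of pool 2 on both. The part of the batch and of the BeadChip in the pool differences was not tested. The proliferation markers had the same lowest and highest pools, with 8.11, 9.66, 9.64, 8.83 and 9.09 in pools 1 to 5. The mean of 10 genes of end joining, the other main route of break repair, spanned less, from 7.88 in pool 1 to 8.01 in pool 4. For 8 of the 29 repair genes and 16 of the 27 proliferation markers, pool 1 was the lowest of the 5 pools in all 3 epithelial subsets, and no other pool was so for more than 1 gene of either list.

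**Figure D5:**
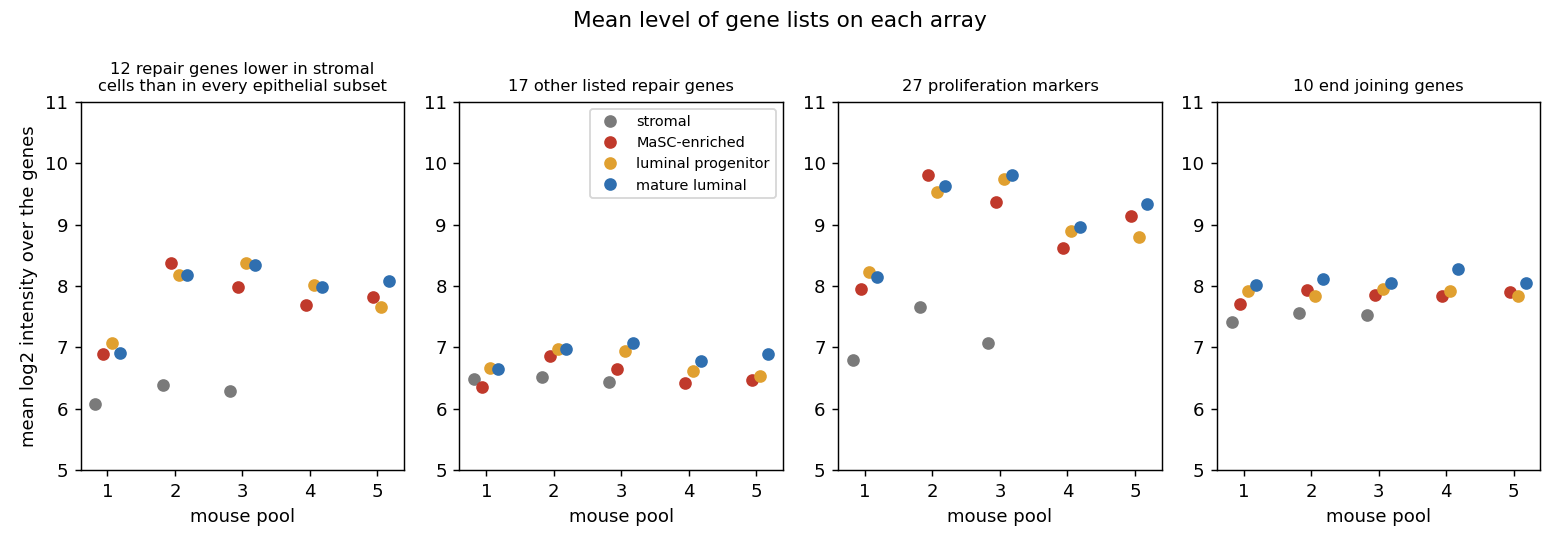
Mean log2 intensity over 4 gene lists on each array (points, coloured by subset) against the mouse pool; pools 4 and 5 have no stromal array. The 12 repair genes and the proliferation markers are low in all 3 epithelial subsets of pool 1. End joining means vary less between pools, and pool 1 has the lowest in MaSC-enriched and mature luminal cells only.

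The sign of the stromal differences was also counted within pools. In pools 1, 2 and 3 the stromal array was below the MaSC-enriched array of the same pool in all 3 pools for 17 of the 29 genes, below the luminal progenitor array for 22 and below the mature luminal array for 21. These counts include genes at background, such as Mdc1 against MaSC-enriched cells and Atr and Exo1 against both luminal subsets. The same share over all genes was not computed, so no excess is read from them. With hybridization batch 1 alone, which holds all stromal arrays, 12, 14 and 18 of the 29 genes were called in the 3 stromal contrasts. That fit called 30%, 35.6% and 37.9% of all genes, and the difference from all genes was not tested. Batch 2, which holds pools 4 and 5, has no stromal array and gives no stromal value.

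Other genes of the pathway were counted in the same way. Of 35 further recombination, Fanconi and checkpoint genes with a probe, 8 were lower and 2 higher in stromal than in MaSC-enriched cells, and 13 were lower and 2 higher than in each luminal subset. That is 28.6%, 42.9% and 42.9% of the 35 in the 3 contrasts, against the 30.4%, 36.3% and 38.3% of all genes, and the difference from all genes was not tested. The largest differences were those of Rad54b, a relative of Rad54l (-3.19 ± 0.39 against luminal progenitors, adjusted p = 2.77e-06), Ube2t, whose enzyme hands ubiquitin to the core complex (-2.56 ± 0.37 against mature luminal cells, adjusted p = 1.88e-05), and Clspn, an adaptor of CHK1 activation (-2.52 ± 0.36 against mature luminal cells, adjusted p = 1.91e-05). Between epithelial subsets 1, 3 and 1 of the 35 were called (MaSC-enriched against luminal progenitor, MaSC-enriched against mature luminal, luminal progenitor against mature luminal), where 22.2%, 27.5% and 11.1% of all genes were. Rbbp8 and Eme1 were not analysed here.

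Of the 10 end joining genes, 3 were lower in stromal than in MaSC-enriched cells, 4 were lower and 1 higher than in luminal progenitors, and 5 were lower than in mature luminal cells, or 3, 5 and 5 of 10 in either direction, against 30.4%, 36.3% and 38.3% of all genes. Lig3 (-1.40 ± 0.15 for stromal minus mature luminal cells, adjusted p = 3.67e-07), the Ku70 gene Xrcc6 (-1.39 ± 0.11, adjusted p = 6.97e-09) and Parp1 (-1.05 ± 0.12, adjusted p = 7.67e-07) were lower than in every epithelial subset. The levels of these 3 genes by pool are not given here, so their stromal differences are not set against the pool means of the list.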

How the data were processed

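RNA of sorted mammary cells was hybridized to 18 Illumina MouseWG-6 v2.0 arrays on 3 BeadChips. The values analysed are the log2 intensities the authors deposited, which their methods describe as background corrected and normalized with control probes in limma after BeadStudio (versions not given in the sources used here). A further table with 18 unassigned signal columns could not be tied to samples and was not used, so detection p-values and another normalization of the raw signal could not be tried, and background came from 1506 olfactory and vomeronasal receptor probes (median plus the upper 1 percent normal point times the median absolute deviation).

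Probes above background on at least 1 array were kept (35585 of 45281, 660 of the receptor probes among them). Of all probes, 34885 had 1 symbol and 18 had several, which named no gene. A gene was given by its kept probe with the highest mean, and 19 of the 29 listed genes had more than 1 probe. All 18 arrays entered 1 limma fit (limma 3.58.1, statmod 1.5.0, R 4.3.3) with a mean per subset, weights for array quality and a random block for the pool of mice (correlation 0.263). Benjamini-Hochberg adjustment ran over the 6 contrasts and all kept probes. Arrays of 1 pool share their mice: the median residual correlation was 0.414 between arrays of the same pool, 0.03 between pools of 1 batch and -0.204 between batches. The fit was tested on simulated data. Leaving out the pool, fixed terms for pool, batch or BeadChip, single batches, other filters, scalings, probe rules and thresholds, and leaving out each array were tried as alternatives.

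The members, lists and tests were chosen with earlier results of these data known. Arrays are given in full for listed genes that differed in at least 1 contrast, up to 16 by largest absolute log2 fold change, which includes Brca1 and Brca2, and Rad51ap1 and Fancg were added after their values were seen. Of other lists the 3 genes with the largest called change are named, and for end joining the 3 lower than in every epithelial subset, a choice made after seeing the values. Promoter windows are those RefSeq gives for GRCm38.p6. A fold against a group wholly at or below background is a bound: the brighter group's mean against the mean of, per array, the higher of background and measured level. The number of arrays limits the precision.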

Additional observations from a re-analysis of the deposited data

Results flagged for a closer look

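Among 87 sets of 5 arrays (29 genes in 3 epithelial subsets), 9 held an array far from the other 4 by Dixon's test at the 95% level, and chance alone gives about 1 in 20. Low values of pool 1 account for 4 of them: Fancd2 at 5.15 in MaSC-enriched replicate 1 (others 7.24 to 7.41), Fancd2 at 5.48 in mature luminal replicate 1 (others 7.51 to 8.03), Brip1 at 5.41 in mature luminal replicate 1 (others 7.28 to 7.55) and Blm at 8.53 in the same array (others 9.38 to 9.57). Fancc was high at 7.26 in mature luminal replicate 5 (others 6.28 to 6.46), below the stromal arrays. Atm was low at 9.78 in MaSC-enriched replicate 4 (others 10.30 to 10.45). The other 3 were near background: Fancb at 4.62 in MaSC-enriched replicate 2 (others 4.54 to 4.56) and at 5.51 in luminal progenitor replicate 4 (others 4.59 to 4.85), and Mdc1 at 5.30 in luminal progenitor replicate 2 (others 4.74 to 4.82).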

How the results depend on the processing

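In the 3 stromal contrasts 13, 17 and 18 listed genes were called against MaSC-enriched, luminal progenitor and mature luminal cells (30.4%, 36.3% and 38.3% of all genes). The count kept within 1.5 times under every alternative run except a test with the fold change inside it (treat) in the first and second. Treat called 5, 8 and 13 of the 29 genes, against 15.3%, 20.8% and 23.4% of all genes. The share of all genes also moved with the setting, and the excess over it was not tested. With the pool as a fixed replicate block the 3 counts were 15, 17 and 19 (30.4%, 37.1% and 38.4% of all genes). With no replicate block they were 11, 12 and 18 (28.3%, 34.2% and 36.8% of all genes). Without the block, 7 calls were lost: Bard1, Brca1, Fanca, Fancd2 and Rad51ap1 against luminal progenitors and Fancd2 and H2afx against MaSC-enriched cells. With the BeadChip as a fixed block the counts were 10, 13 and 17 (29.6%, 35.7% and 37.9% of all genes) and 8 calls were lost. They were Bard1, Fanca, Fancd2 and Rad51ap1 against luminal progenitors, Bard1, Fancd2 and H2afx against MaSC-enriched cells and Fanci against mature luminal cells. Without the 4 arrays that stood apart, an alternative chosen after seeing the data, 7 calls were lost, and without 3 of them (MaSC-enriched replicate 3, luminal progenitor replicates 3 and 4) 5 were. Leaving out each array in turn gave 10 to 15, 13 to 18 and 18 to 19 genes.

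Between MaSC-enriched cells and luminal progenitors 0 genes were called, but 1 with the pool, the batch or the BeadChip as a fixed block (Rad52), 3 at the FDR alone, 2 without the 3 arrays, 1 without the 4 and 0 to 2 on leaving out 1 array. Between MaSC-enriched and mature luminal cells the 3 calls were 0 with treat (13.7% of all genes), 0 in batch 2 alone (3.45% of all genes) and 6 at the FDR alone. They stayed at 3 without any 1 array. Between luminal progenitors and mature luminal cells 0 became 1 in 6 settings: the filter of 3 arrays and the fixed pool block (Chek2), the BeadChip block and leaving out the 3 or the 4 arrays (Palb2), and the FDR alone (Rad50). Leaving out 1 array gave 0 to 1. At the FDR alone, 27.6%, 34.7% and 16.9% of all genes were called in these 3 contrasts.

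No called value changed sign. Uncalled epithelial differences of Brca1 and Brca2 near 0 did. For MaSC-enriched minus luminal progenitor cells Brca1 (-0.54 in all arrays) was 0.14 in batch 2 alone, and Brca2 (-0.16) was 0.037 without the 3 arrays and -0.43 to 0.032 without 1 array, above 0 only without luminal progenitor replicate 3. For luminal progenitor minus mature luminal cells Brca1 (0.03) was -0.047 with the fixed pool block, -0.13 with the batch block, -0.20 with the BeadChip block, -0.24 in batch 2 alone and -0.42 and -0.41 without the 3 and the 4 arrays, and -0.38 to 0.40 without 1 array, below 0 without luminal progenitor replicate 2 or 3 or mature luminal replicate 1, 4 or 5. Brca2 there (-0.07) was 0.085 with the mean of the probes and -0.26 to 0.21 without 1 array, above 0 without luminal progenitor replicate 1 or mature luminal replicate 3. The cause was not tested. Probes near background set the limit for Brca1, Bard1, Chek1 and Fanca in stromal cells.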
